A study of Mus musculus with 16 samples.

Results

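Hepcidin and the genes of hepatic iron handling were followed in mouse liver RNA as a set of 10 genes chosen by name, of 52143 genes in the deposited table. The set holds the hepcidin genes *Hamp* and *Hamp2*, the transferrin receptors *Tfrc* and *Tfr2*, transferrin (*Trf*), the iron exporter ferroportin (*Slc40a1*), the ferritin subunits *Fth1* and *Ftl1*, and *Id1* and *Smad7*, targets of BMP signaling. The libraries came from 16 male C57BL6/J mice, 4 in each of 4 groups, which were 6 weeks old at the start and were fed for 12 weeks. Chow mice received chow and saline, Chow/FGFR4 KD mice chow and 3 mg/kg of an siRNA against *Fgfr4* every 2 weeks, HFD mice a high-fat diet with 60% fat and saline, and HFD/FGFR4 KD mice the HFD and the siRNA. The siRNA carried N-acetylgalactosamine, which hepatocytes take up, so the knockdown (KD) was aimed at hepatocytes, and controls received no other siRNA, so the siRNA as such and the loss of FGFR4 cannot be told apart.

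Hepcidin is a peptide hormone of hepatocytes that binds ferroportin and has it degraded, which holds iron back in macrophages and gut cells. Its transcription is raised by BMP ligands of liver endothelium through hepatocyte SMAD proteins, by iron-loaded transferrin through *Tfr2*, and by interleukin 6 through STAT3. Inside cells, iron regulatory proteins bind RNA hairpins called iron-responsive elements (IREs). They block translation of ferritin and ferroportin RNA and stabilize *Tfrc* RNA when iron is scarce.

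All 10 genes passed the filter on low counts. Total estimated counts per library ranged from 3445949 to 5976449, and levels are given as CPM, counts relative to library size after scaling with TMM factors. *Fgfr4* itself was 29.7 ± 4.57 CPM (mean ± SD, n = 4) in Chow, 4.78 ± 1.60 in Chow/FGFR4 KD, 25.7 ± 4.25 in HFD and 3.74 ± 1.35 in HFD/FGFR4 KD. Changes were tested with limma-voom across 11324 genes. Calls required both an unadjusted p under 0.05 and an adjusted p (Benjamini-Hochberg, over those genes) under 0.25. The hepatocyte markers summed to between 71687 and 91101 CPM in the 16 libraries, with none of the 10 markers at 0 throughout a group. In whole liver RNA, fewer cells of a type and less RNA per cell cannot be told apart.

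Both hepcidin genes lie on chromosome 7 in GRCm38. *Hamp* (ENSMUSG00000050440) spans 30942368 to 30944032 and *Hamp2* (ENSMUSG00000056978) spans 30922372 to 30924681, both on the minus strand. The bases from 250 to 11 before the RefSeq start of each gene are shown because the balance of both genes differed between the diets. Both stretches are from GRCm38.p6 and the minus strand, chr7:30944040-30944279 for *Hamp* and chr7:30924192-30924431 for *Hamp2*. The *Hamp2* stretch lies before the first exon of 2 annotated transcripts and inside the first intron of another. Capitals mark GGCGCC, the letters of a BMP-responsive element, and TTCNNNGAA, the letters of a STAT site, searched on both strands.
Hamp: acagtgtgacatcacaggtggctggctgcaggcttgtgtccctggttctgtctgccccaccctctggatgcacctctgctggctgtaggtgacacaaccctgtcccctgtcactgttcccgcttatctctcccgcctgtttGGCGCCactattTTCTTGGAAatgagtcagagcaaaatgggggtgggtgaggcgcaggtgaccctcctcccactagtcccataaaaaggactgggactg
Hamp2: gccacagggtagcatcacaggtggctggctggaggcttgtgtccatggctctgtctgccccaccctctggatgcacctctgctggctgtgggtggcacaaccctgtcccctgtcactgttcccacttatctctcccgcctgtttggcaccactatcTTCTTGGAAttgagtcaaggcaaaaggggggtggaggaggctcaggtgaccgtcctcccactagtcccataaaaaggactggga
The stretches were 89.7% identical over 243 aligned positions. GGCGCC was present in *Hamp*, with 103 bases between its end and the start, and was not found in *Hamp2*, where the alignment gave the substitution G145A (counted from 1 at the first base shown for *Hamp*). TTCNNNGAA was present in both as TTCTTGGAA. Of 32851 RefSeq promoter windows of 240 bases, 9.08% held GGCGCC and 6.77% held TTCNNNGAA. The letters are a description of these windows and not evidence of binding.

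*Hamp* had the widest relative range of the 10 genes over the libraries. In Chow it was 97.4, 151, 178 and 93.2 CPM, and in Chow/FGFR4 KD 118, 159, 224 and 185 CPM. In HFD it was 56.7, 145, 28.2 and 141 CPM, and in HFD/FGFR4 KD 132, 87.2, 0.332 and 24.6 CPM. The 8 chow-fed libraries stayed at 93.2 CPM or above, whereas each HFD group held libraries at chow-like levels beside libraries far below them. In HFD/FGFR4 KD 3, *Hamp* had 2 counts where its neighbor in rank, HFD/FGFR4 KD 4, had 95, a ratio of 74.1 in CPM (95% interval of counting error 19.96 to 621). The low value was 0.332 CPM (exact Poisson interval 0.0402 to 1.20), under the 0.498 CPM that 3 counts represent in that library, so the size of the loss in this mouse was not measurable beyond this ratio.

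The second hepcidin gene had its high values on the HFD. *Hamp2* was 0.822, 1.04, 4.90 and 7.15 CPM in Chow, and 3.40, 2.32, 5.47 and 0.553 CPM in Chow/FGFR4 KD. It was 36.6, 19.5, 17.5 and 10.9 CPM in HFD, and 8.34, 13.9, 1.49 and 46.7 CPM in HFD/FGFR4 KD. The 4 HFD libraries lay above the 8 chow-fed libraries, while HFD/FGFR4 KD ran across both ranges, with its lowest value in the library that nearly lacked *Hamp*.

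*Hamp2* was a larger part of the summed *Hamp* and *Hamp2* RNA in the HFD-fed groups. Whether its product acts as the hormone was not tested here, so the share describes RNA only. Its share of the counts of both genes ran from 0.686% to 7.08% in Chow, with a median of 1.75%, and from 0.297% to 2.78% in Chow/FGFR4 KD, with a median of 1.90%. It ran from 7.20% to 39.3% in HFD, with a median of 25.03%, and from 5.86% to 81.8% in HFD/FGFR4 KD, with a median of 39.6%. The share of 81.8% came from 9 of 11 counts (95% Wilson interval 52.3% to 94.9%), and the share of 65.5% in HFD/FGFR4 KD 4 came from 180 of 275 counts (59.7% to 70.8%). These intervals cover counting error only. *Hamp* shared 33.7% of its 31-base words with *Hamp2*, so the split between the genes rests on the authors' assignment of reads and is uncertain where either is low. Together both genes gave 98.2 to 183 CPM in Chow, 121 to 229 CPM in Chow/FGFR4 KD, 45.7 to 165 CPM in HFD and 1.83 to 140.5 CPM in HFD/FGFR4 KD. Either HFD group overlapped the chow group of the same treatment. In a limma-voom fit on summed counts, the sum was not called between HFD and Chow (log2 fold change -0.35, adjusted p = 0.828). It was called lower in HFD/FGFR4 KD than in Chow/FGFR4 KD (-2.33, adjusted p = 0.159), where 20.3% of all genes were called. That fit includes the library with 11 counts.

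**Figure D1:**
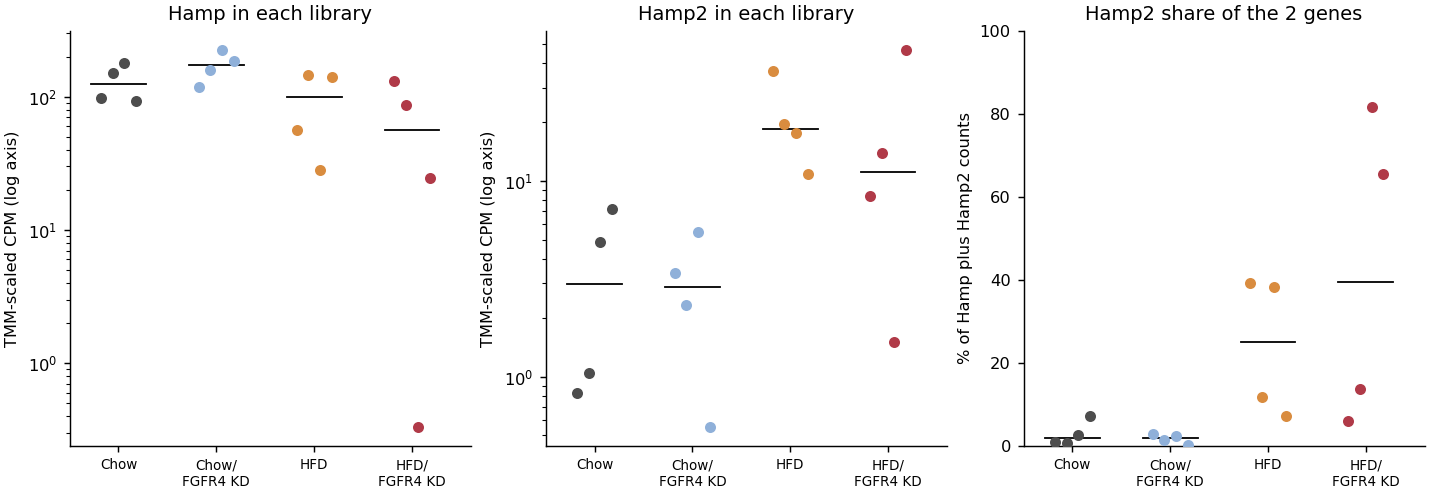
Levels of *Hamp* and *Hamp2* in TMM-scaled CPM on log axes, and the percentage of the counts of both genes that came from *Hamp2*, in each of the 16 libraries (points) with the group median (line). *Hamp* fell to 0.332 CPM in HFD/FGFR4 KD 3, and the *Hamp2* share reached 39.3% in HFD and 81.8% in HFD/FGFR4 KD against at most 7.08% in the chow-fed groups.

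The effect of diet was examined first in saline-injected mice. With limma-voom, 6 of 10 genes were called, 5 higher and 1 lower on the HFD, where 25.9% of all tested genes were called. The median log2 fold change was 0.33 over the 10 genes and 0.0071 over all genes. The members were chosen with earlier results of these data known, so these figures are not an independent test of the set. *Hamp2* rose 7.86-fold (log2 fold change 2.97, SE 1.07, adjusted p = 0.0926), and *Hamp* was not called (-0.74, SE 0.935, adjusted p = 0.663). Scaling by library totals alone moved the median of all genes in this comparison to 0.29 and the share of calls that were higher from 51.3% to 92.1%.

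Both ferritin subunits were higher on the HFD. *Fth1*, the heavy chain that oxidizes iron for storage (chromosome 19, 9980598 to 9985098), was 964, 881, 1052 and 921 CPM in Chow and 1381, 1161, 1362 and 1151 CPM in HFD. *Ftl1*, the light chain (chromosome 7, 45457944 to 45459884), was 2296, 2059, 2122 and 1831 CPM in Chow and 2462, 2392, 2841 and 2344 CPM in HFD. The groups did not overlap for either gene. How many of all tested genes did not overlap was not computed, here or for the other members. *Fth1* rose 1.32-fold (log2 fold change 0.40, SE 0.108, adjusted p = 0.0270) and *Ftl1* 1.21-fold (0.27, SE 0.102, adjusted p = 0.101) in the limma-voom fit. The *Ftl1* call was lost without Chow 4 (0.21, adjusted p = 0.244, the unadjusted p being above the threshold) and without HFD 3 (0.21, adjusted p = 0.259). *Ftl1* shared 64.1% of its 31-base words with other genes, mostly the pseudogene *Ftl1-ps1*, which itself did not exceed 19.6 CPM.

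Ferroportin, through which iron leaves cells, rose with the ferritins. *Slc40a1* (chromosome 1, 45908068 to 45926523) was 51.7, 47.7, 62.1 and 59.9 CPM in Chow and 64.1, 80.8, 65.5 and 79.6 CPM in HFD, groups that did not overlap. Its log2 fold change was 0.38 (SE 0.172, adjusted p = 0.172 with limma-voom). The call was lost when Chow 1, Chow 2, HFD 2 or HFD 4 was left out, with adjusted p up to 0.345, and with library quality weights (0.34, adjusted p = 0.226, the unadjusted p being above the threshold).

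On the side of transferrin, *Tfr2*, the receptor with which hepatocytes sense iron-loaded transferrin (chromosome 5, 137569840 to 137587481), was the member that fell. It was 292, 305, 306 and 274 CPM in Chow and 237, 257, 227 and 235 CPM in HFD, groups that did not overlap (log2 fold change -0.30, SE 0.0866, adjusted p = 0.0388 with limma-voom). With library totals as the only scaling the difference was -0.02 (adjusted p = 0.878), so the call depended on the scaling. *Trf*, transferrin itself and at 3482 CPM per kilobase of exon in Chow the highest member per length, was 11561 ± 577 CPM in Chow and 11037 ± 1423 in HFD and was not called (adjusted p = 0.755). It shared 63.9% of its 31-base words with other genes, mostly *Gm20425*, which did not exceed 27.01 CPM. *Tfrc*, the receptor for cellular uptake, was 37.7, 14.3, 13.2 and 22.5 CPM in Chow and 29.5, 11.9, 33.3 and 15.1 CPM in HFD, ranges that overlapped almost fully (0.05, SE 0.472, adjusted p = 0.959).

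The BMP targets were the lowest members per length in Chow, at 1.24 CPM per kilobase of exon for *Id1* and 1.04 for *Smad7*. *Id1*, an inhibitor of helix-loop-helix factors, was 0.820, 0.261, 3.25 and 1.42 CPM in Chow and 1.87, 2.94, 2.91 and 2.83 CPM in HFD, from 1 to 16 and from 13 to 19 counts. The groups overlapped, because Chow 3 was above every HFD library, and the log2 fold change was 1.16 (SE 0.495, adjusted p = 0.149 with limma-voom). The call was lost in edgeR (0.80, adjusted p = 0.332) and DESeq2 (0.83, adjusted p = 0.375), and without any of Chow 1, Chow 2, HFD 2, HFD 3 or HFD 4. *Smad7*, an inhibitor of the same pathway, was 4.68 ± 1.80 CPM in Chow and 6.52 ± 1.14 in HFD and was not called (0.51, SE 0.271, adjusted p = 0.249 in limma-voom, the unadjusted p being above the threshold).

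Markers of other liver cells moved along with these genes. Of 12 Kupffer cell and macrophage markers, 11 were called higher on the HFD, and their sum was 87.8 to 92.1 CPM in Chow and 153 to 261 CPM in HFD. Of 10 stellate cell and fibroblast markers, 6 were called higher, with sums of 151 to 230.2 CPM and 246 to 394 CPM. Of 5 red blood cell markers tested of 7 listed in the table, 4 were called higher and 1 lower, and the sum of the 7 was 273 to 525 CPM in Chow and 512 to 933 CPM in HFD. Of 10 hepatocyte markers, 5 were called lower, although their sum of 75616 to 83436 CPM in HFD overlapped that of 77663 to 83967 CPM in Chow. None of the lymphocyte and neutrophil markers passed the filter, with sums of at most 4.02 CPM in these groups. Macrophages also express ferroportin and ferritin, and the part of these cells in the rise of *Slc40a1*, *Fth1* and *Ftl1* was not tested.

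**Figure D2:**
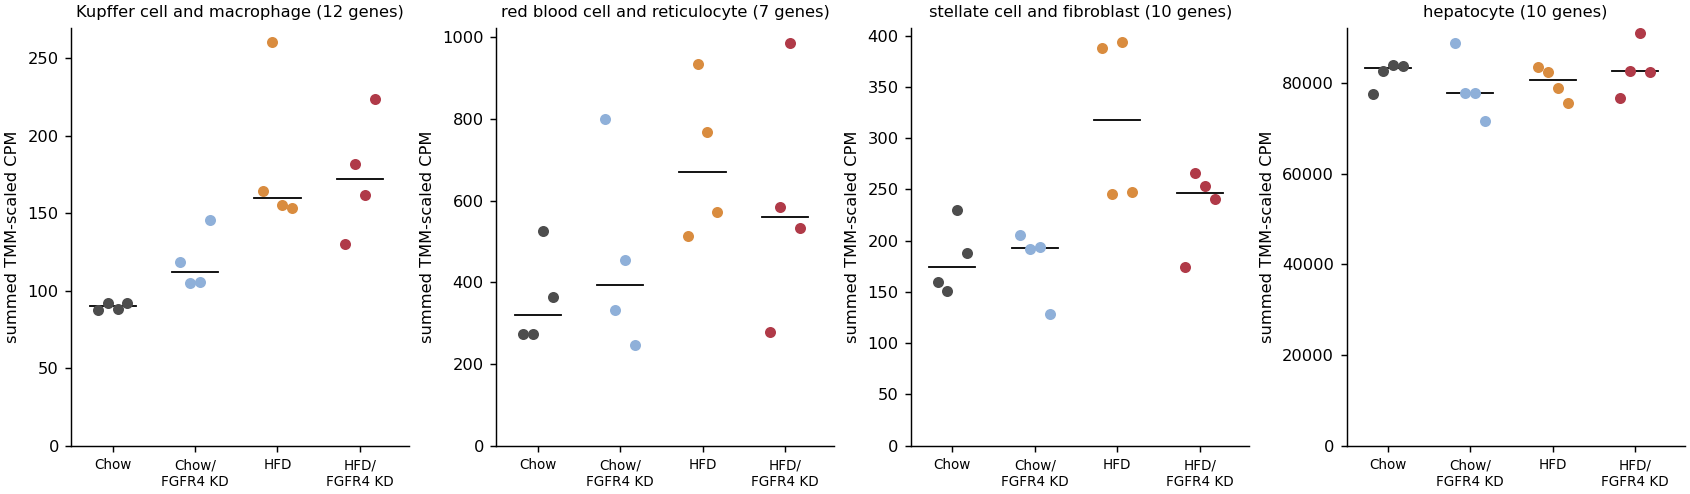
Summed TMM-scaled CPM of marker genes of 4 cell types in each library (points) with the group median (line). The Kupffer cell sum was 87.8 to 92.1 CPM in Chow and 153 to 261 CPM in HFD, while the hepatocyte sums of the groups overlapped.

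Under KD, ferroportin and *Hamp* were the members called for diet. With limma-voom 2 of 10 genes were called between HFD/FGFR4 KD and Chow/FGFR4 KD, where 20.2% of all genes were called, and the median log2 fold change was 0.18 over the members and -0.0088 over all genes. *Slc40a1* rose again, from 58.1, 60.4, 31.5 and 43.8 CPM to 58.3, 74.6, 89.8 and 64.5 CPM (0.58, SE 0.179, adjusted p = 0.0887), although its groups overlapped. *Hamp* was lower (-3.44, SE 1.14, adjusted p = 0.106), from 171 ± 44.5 to 61.1 ± 59.9 CPM, and HFD/FGFR4 KD 1 lay within the Chow/FGFR4 KD range. Without the library that had 2 *Hamp* counts, the change was -1.31 (adjusted p = 0.247). In edgeR's quasi-likelihood test with all libraries it was -1.49 and was not called (adjusted p = 0.263), and likewise in DESeq2 (-1.49, adjusted p = 0.386). *Hamp2* was not called (1.75, SE 1.19, adjusted p = 0.434), yet was called without the same library (2.81, adjusted p = 0.143), in edgeR (2.53, adjusted p = 0.102) and in DESeq2 (2.59, adjusted p = 0.0649). The Kupffer cell sum was 105 to 146 CPM in Chow/FGFR4 KD and 130.1 to 224 CPM in HFD/FGFR4 KD, with 4 of 12 markers called higher.

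The KD was next compared with saline on the HFD, the setting in which the role of hepatic FGFR4 was in question. None of the 10 genes was called with limma-voom, where 3.14% of all genes were called. At an unadjusted p under 0.05 there were 2 members, *Ftl1* and *Tfrc*, where 10.99% of all genes reached it. The edgeR test called 0 members and DESeq2, which gave no adjusted p for *Id1*, called 1, *Ftl1* (-0.27, adjusted p = 0.248).

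*Ftl1* was 1675, 2261, 2129.7 and 2260.5 CPM in HFD/FGFR4 KD, and every one of these values lay under the 4 HFD values. The share of all tested genes without overlap was not computed for this comparison either. The log2 fold change was -0.28 (SE 0.102, adjusted p = 0.317 with limma-voom). *Fth1* was 879, 1199, 1178 and 1269 CPM in HFD/FGFR4 KD, across its HFD values (-0.17, SE 0.108, adjusted p = 0.615). For both ferritins the lowest library was HFD/FGFR4 KD 1.

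*Tfrc* (chromosome 16, 32608920 to 32632794) was 20.4, 35.0, 80.4 and 45.3 CPM in HFD/FGFR4 KD against 29.5, 11.9, 33.3 and 15.1 CPM in HFD. The 2 highest libraries of the study for this gene were HFD/FGFR4 KD 3 and 4. Its log2 fold change was 0.96 (SE 0.426, adjusted p = 0.413 with limma-voom), and 0.59 (adjusted p = 0.721) without HFD/FGFR4 KD 3. *Hamp* went from 92.7 ± 59.2 to 61.1 ± 59.9 CPM (-2.29, SE 1.15, adjusted p = 0.488), a difference that was -0.16 (adjusted p = 0.959) without HFD/FGFR4 KD 3 and -0.60 (adjusted p = 0.839) in edgeR. *Hamp2* gave -1.28 (SE 0.657, adjusted p = 0.503), and -0.22 (adjusted p = 0.936) without that library.

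The remaining members were not called either. *Tfr2* was 239 ± 12.9 CPM in HFD and 267 ± 22.98 in HFD/FGFR4 KD (0.16, adjusted p = 0.527), and *Trf* was 11037 ± 1423 and 12473 ± 1262 CPM (0.18, adjusted p = 0.669). *Slc40a1* was 72.5 ± 8.90 and 71.8 ± 13.8 CPM (-0.02, adjusted p = 0.984). *Id1* was 1.30, 3.98, 0.830 and 1.04 CPM in HFD/FGFR4 KD, with HFD/FGFR4 KD 2 above all HFD libraries and the others below them (-0.79, SE 0.457, adjusted p = 0.574). *Smad7* was highest in the same library, at 11.3 CPM (0.05, adjusted p = 0.959 over the groups).

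On chow the KD gave no called member. None of 10 was called with limma-voom, edgeR or DESeq2, where limma-voom called 0.00883% of all genes, *Fgfr4* alone. None had an unadjusted p under 0.05 with limma-voom, which 4.59% of all genes had. The smallest adjusted p was 0.976. The fitted changes ran from -0.21 for *Slc40a1* to 0.56 for *Id1*, and the standard error of 1.46 for *Hamp2* and 0.925 for *Hamp* leaves room for large changes. The difference between the KD effects on the diets was called for 0 of 10 genes with limma-voom and edgeR, where limma-voom called 0.0353% of all genes, and for 0 of the 6 members to which DESeq2 gave an adjusted p. None had an unadjusted p under 0.05 with limma-voom, which 6.76% of all genes had. Its largest members were *Hamp* at -2.71 (SE 1.47, adjusted p = 0.767) and *Id1* at -1.34 (SE 0.725, adjusted p = 0.766). The comparisons share groups: HFD mice stand in both the HFD comparison in saline mice and the KD comparison on the HFD, so opposite signs for the ferritins in these are not independent.

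**Figure D3:**
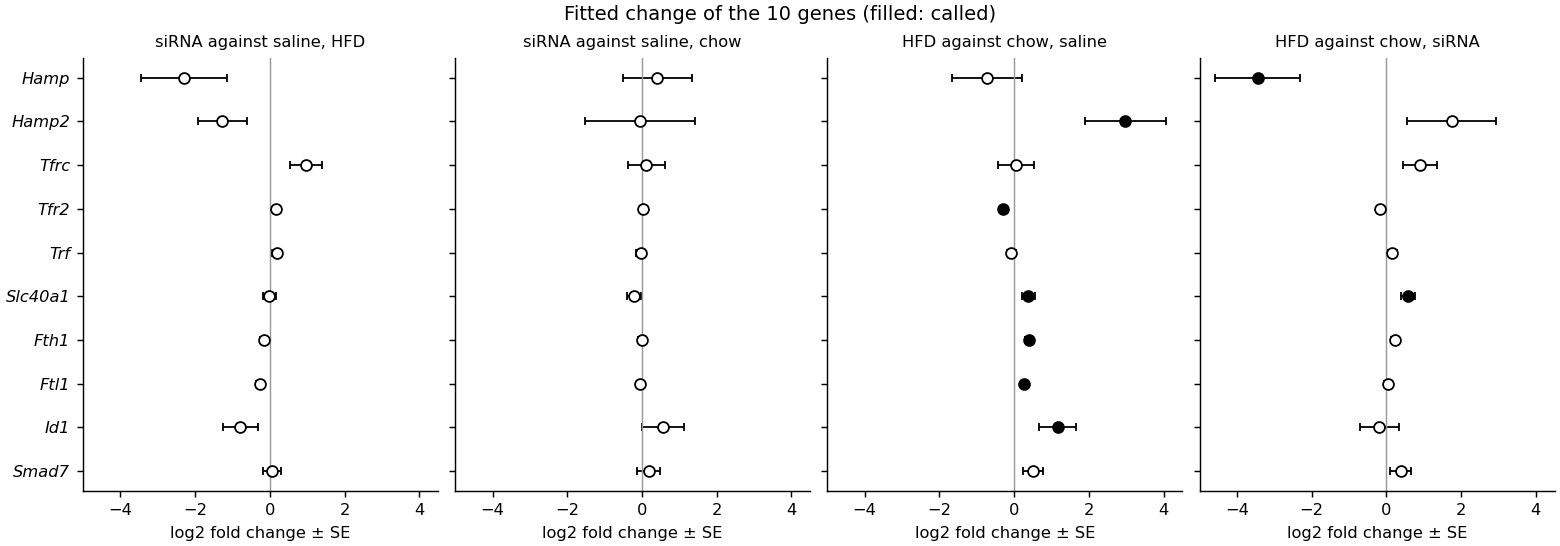
Fitted log2 fold change ± SE of the 10 genes in the 4 comparisons between groups from limma-voom, with filled points for called genes. The HFD in saline mice has 6 filled points, the HFD under KD has 2, and the comparisons of siRNA with saline have none.

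Mice of the HFD/FGFR4 KD group differed in several members at once. HFD/FGFR4 KD 1 had the highest *Hamp* (132 CPM) and *Tfr2* (301 CPM) of its group and the lowest *Tfrc* (20.4 CPM), *Slc40a1* (58.3 CPM), *Fth1* (879 CPM) and *Ftl1* (1675 CPM), of which *Tfrc*, *Slc40a1* and *Tfr2* lay within the ranges of the chow-fed libraries and the ferritins under them. Its *Fgfr4* was 2.82 CPM, as low as in the rest of the group. Its Kupffer cell sum of 130.1 CPM, stellate cell sum of 174 CPM and red blood cell sum of 278 CPM were also the lowest of its group, and their part in these values was not tested. Without this library 5 members were called between HFD/FGFR4 KD and Chow/FGFR4 KD, where 22.4% of all genes were: *Fth1* (0.34, adjusted p = 0.0390), *Slc40a1* (0.67, adjusted p = 0.0457), *Tfrc* (1.23, adjusted p = 0.0997), *Tfr2* (-0.22, adjusted p = 0.152) and *Hamp* (-4.55, adjusted p = 0.0337). Because the library was singled out by its values for these same genes, leaving it out widens their differences from chow by construction. The 5 calls are therefore no separate evidence. HFD/FGFR4 KD 3 combined the lowest *Hamp* of the study with the highest *Tfrc* (80.4 CPM) and *Slc40a1* (89.8 CPM) and with the highest red blood cell sum, 985 CPM. It was not the opposite of HFD/FGFR4 KD 1 in every member. Its *Fth1* (1178 CPM), *Ftl1* (2129.7 CPM) and *Tfr2* (261 CPM) lay inside the range of the other libraries of its group.

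**Figure D4:**
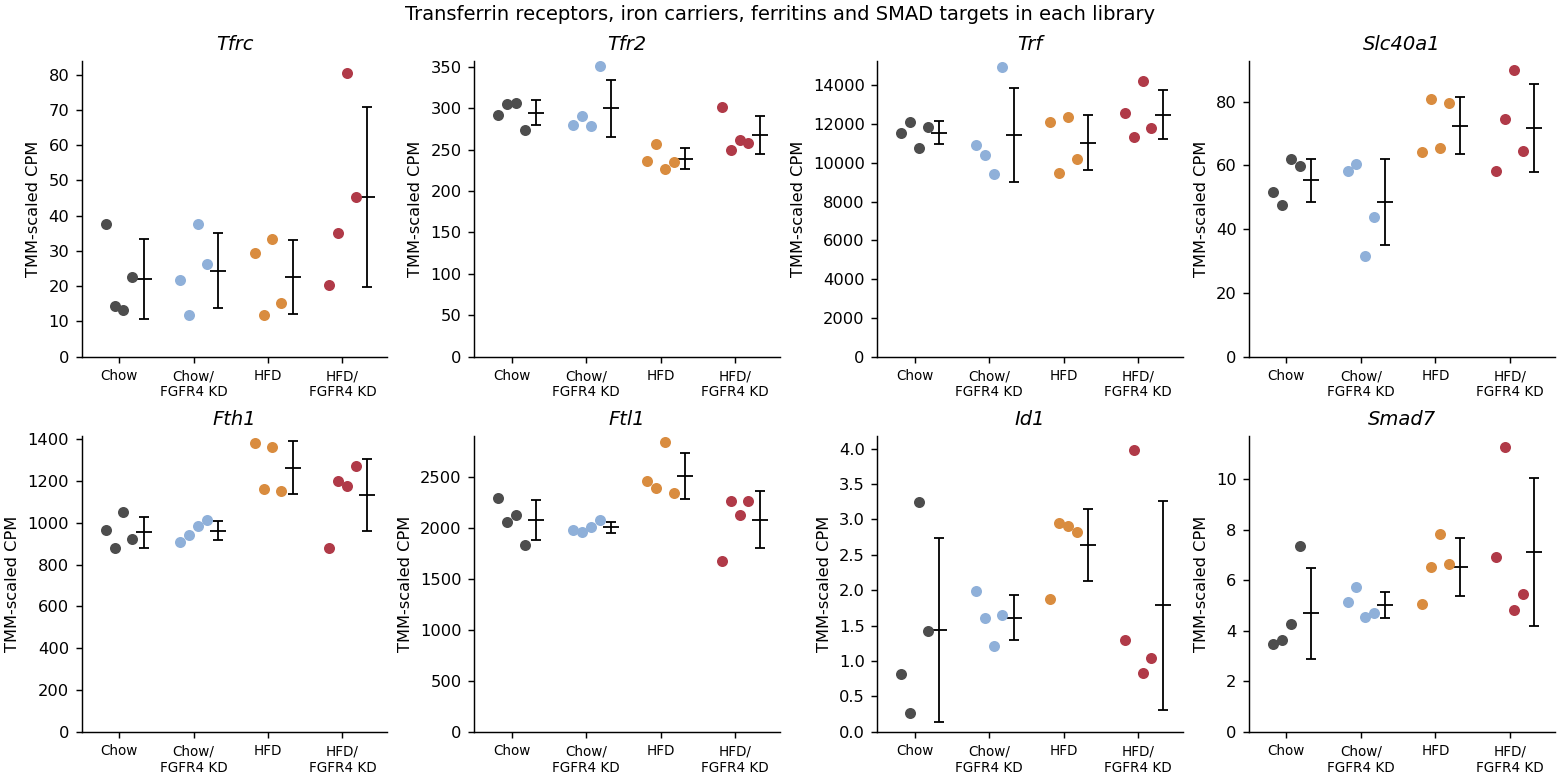
Levels of the other 8 members in each library (points) with mean ± SD of the 4 libraries of a group, in TMM-scaled CPM from 0. *Fth1*, *Ftl1* and *Slc40a1* were higher and *Tfr2* lower in HFD than in Chow with no overlap, and *Tfrc* reached 80.4 CPM in HFD/FGFR4 KD 3. How many of all tested genes did not overlap was not computed.

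IRE letters were searched in annotated transcripts because iron regulatory proteins are known to act on ferritin, ferroportin and *Tfrc* RNA. The pattern was a bulged C, a stem of 5 pairs with G-U pairs allowed, and a loop beginning CAGTG. It was present in 1.34% of 21901 protein-coding genes and in 4 of the 10 members. Capitals mark the bulged C and the 6 loop bases, in GRCm38.
Fth1 5′ UTR, plus strand, chr19:9982733-9982759: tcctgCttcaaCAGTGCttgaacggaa
Ftl1 5′ UTR, minus strand, chr7:45459780-45459806: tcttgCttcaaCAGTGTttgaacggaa
Slc40a1 5′ UTR, minus strand, chr1:45925466-45925492: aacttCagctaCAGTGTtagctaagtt
Tfrc 3′ UTR, plus strand, chr16:32631220-32631246: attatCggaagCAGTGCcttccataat
Tfrc 3′ UTR, plus strand, chr16:32631599-32631625: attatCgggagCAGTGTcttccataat
Tfrc 3′ UTR, plus strand, chr16:32631664-32631690: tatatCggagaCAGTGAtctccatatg
Tfrc 3′ UTR, plus strand, chr16:32631711-32631737: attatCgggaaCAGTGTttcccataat
*Tfrc* held the pattern 4 times behind its coding sequence and the others held it ahead of theirs. RNA levels do not show translation, and protein was not measured here.

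*Hamp* and *Tfrc* had opposite patterns across the 16 libraries. Pearson's r of log2 CPM was -0.73 (permutation p = 0.00061, Benjamini-Hochberg adjusted over all genes p = 0.0959) and Spearman's rho was -0.60 (permutation p = 0.0169, adjusted p = 0.180). *Tfrc* was the gene ranked 13 of 11323 by how negative its r with *Hamp* was. After HFD/FGFR4 KD 3 and 4 were left out, as the libraries farthest from the median of *Hamp*, r was -0.44. It was -0.13 over the 8 chow-fed libraries and -0.87 over the 8 HFD-fed libraries, so the relation was not seen on chow, and over all libraries it leans on the pair left out. The 8 HFD-fed libraries include that pair, and r without it was not computed for them. In HFD/FGFR4 KD 3 the value of *Hamp* rests on 2 counts. With values centred on group means, r over the 16 libraries was -0.66 and the rank of *Tfrc* was 74. The permutations shuffled libraries across the 4 groups, so the p values by r and by rank also count differences between groups. Of the 9 relations of *Hamp* with other members, none of the other 8 had an adjusted p under 0.25 by Pearson's r. By rank, *Tfr2* (rho = 0.61, adjusted permutation p = 0.170), *Slc40a1* (-0.58, adjusted permutation p = 0.191) and *Fth1* (-0.51, adjusted permutation p = 0.242) were under 0.25 too. By this measure over all 16 libraries, *Tfr2* was related to *Hamp* at least as closely as *Tfrc* was. Over the 8 chow-fed and the 8 HFD-fed libraries, Pearson's r was 0.41 and 0.0028 for *Tfr2*. It was -0.58 and -0.44 for *Slc40a1*, and 0.50 and -0.24 for *Fth1*.

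Among the genes whose pattern was most like *Tfrc* over the 16 libraries were *Insig1*, which holds back sterol-driven transcription (r = 0.91), and *Acsl3*, an acyl-CoA synthetase (r = 0.87), and their values centred on group means gave 0.92 and 0.85. These r values describe 16 libraries that share 4 groups. *Insig1* was highest in HFD/FGFR4 KD 3 at 582 CPM and lowest in HFD 2 at 173 CPM, the libraries in which *Tfrc* was 80.4 and 11.9 CPM. *Acsl3* was 44.4 CPM in HFD/FGFR4 KD 3 and 9.25 CPM in HFD 2, also its highest and lowest libraries. Between HFD and HFD/FGFR4 KD, *Acsl3* (log2 fold change 1.04, adjusted p = 0.177) was called by limma-voom, while *Insig1* (0.74, adjusted p = 0.303) and *Tfrc* were not. For *Hamp* the most similar genes were *Mad2l1bp* (r = 0.87), *Phf5a* (0.86) and *Rarres1* (0.83), each at its lowest in HFD/FGFR4 KD 3. For *Id1* they were *Chmp1a* (0.87), *Mras* (0.80) and *Them6* (0.79).

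**Figure D5:**
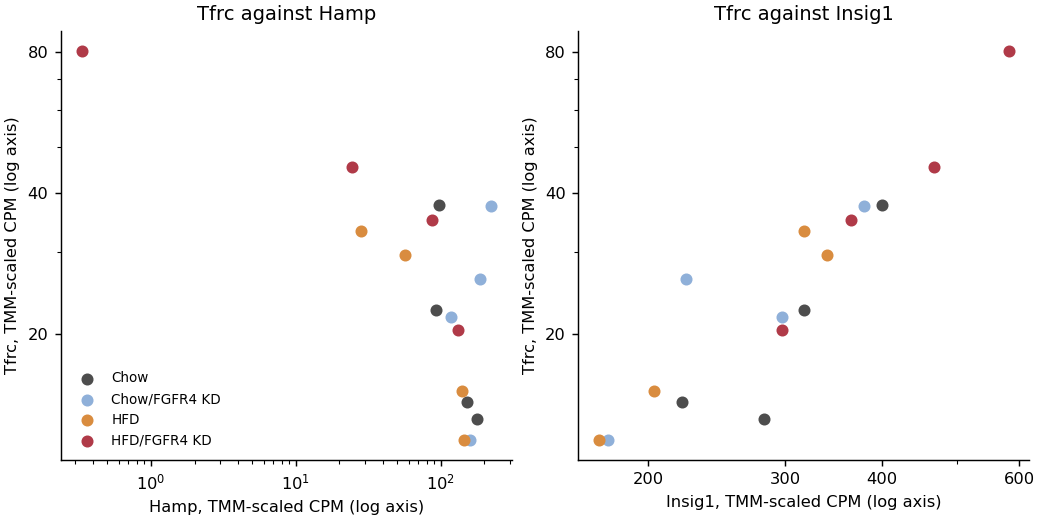
*Tfrc* against *Hamp* and *Insig1* in TMM-scaled CPM on log axes, with a point for each of the 16 libraries colored by group. HFD/FGFR4 KD 3 has the highest *Tfrc* (80.4 CPM) with the lowest *Hamp* (0.332 CPM) and the highest *Insig1* (582 CPM).

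The inputs of hepcidin transcription were then read from lists of pathway genes. In these lists, changes in saline mice and changes under KD compare the HFD with chow. Among 4 tested BMP ligands and modulators of liver endothelium, none was called in any comparison. *Bmp6*, the ligand that answers to iron, was 1.40 ± 0.743 CPM in Chow and 1.60 ± 0.537 in HFD (0.20, adjusted p = 0.810), and *Bmp2* was 6.59 ± 2.97 and 5.001 ± 1.27 CPM (-0.35, adjusted p = 0.509). Of 16 receptors, co-receptors and SMADs, 3 were called higher and 4 lower on the HFD in saline mice, where 25.9% of all genes were called, and 1 higher and 2 lower under KD, where 20.2% were. The hepcidin co-receptor hemojuvelin (listed as *Hfe2*) rose from 55.0 ± 11.48 to 72.2 ± 9.38 CPM in saline mice (0.40, adjusted p = 0.147) and from 44.7 ± 11.9 to 74.1 ± 6.78 CPM under KD (0.76, adjusted p = 0.0331). *Furin*, a protease that processes hepcidin and hemojuvelin, rose by 0.23 on the log2 scale (adjusted p = 0.0575) and *Smad4*, the shared SMAD, was lower (-0.31, adjusted p = 0.0862) in saline mice. *Smad1*, a BMP-responsive SMAD, was lower on the HFD than on chow under KD (-0.65, adjusted p = 0.0722). *Tmprss6*, the protease that cleaves hemojuvelin, was 354 ± 5.58 CPM in Chow and 328 ± 4.55 in HFD and was not called (-0.11, adjusted p = 0.296). Of 4 other SMAD targets tested, *Smad6* was called on the HFD in saline mice (0.86, adjusted p = 0.182).

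Inflammatory input was read in the same way. The list for interleukin 6 input had 8 tested genes and also held liver factors outside the STAT3 route. Of these factors, *Cebpa*, a hepatocyte factor that acts on *Hamp*, rose on the HFD in saline mice (0.25, adjusted p = 0.173) and under KD (0.47, adjusted p = 0.0361). *Creb3l3*, another liver factor, fell in saline mice (-0.23, adjusted p = 0.0878), where library totals alone gave 0.05. *Socs3*, a target of STAT3, was lower in HFD/FGFR4 KD than in Chow/FGFR4 KD, at 7.15 ± 2.65 against 28.3 ± 15.6 CPM (-1.66, adjusted p = 0.147). *Il6* and *Il1b* did not pass the filter. Of 14 acute-phase genes, 1 was called higher and 3 lower in saline mice and 4 lower under KD, shares near the 25.9% and 20.2% of all genes. In the reference group under KD, Chow/FGFR4 KD 4 stood apart, with an acute-phase sum of 39823 CPM against at most 20307 CPM in the other libraries and *Saa1*, a serum amyloid gene, at 2677 CPM against at most 306 CPM. The fibrinogen genes *Fga*, *Fgb* and *Fgg* were lower on the HFD in both comparisons, with log2 fold changes of -0.66, -0.68 and -0.69 in saline mice and -0.81, -0.75 and -0.80 under KD (adjusted p from 0.0313 to 0.0393). *Crp* was lower on the HFD than on chow under KD (-0.46, adjusted p = 0.199). Without Chow/FGFR4 KD 4 the calls under KD were lost for *Crp* (-0.18, adjusted p = 0.452) and *Socs3* (-1.40, adjusted p = 0.269) and kept for *Fga* (-0.64), *Fgb* (-0.57) and *Fgg* (-0.61), with adjusted p from 0.0817 to 0.0945. *Hamp* (-3.39, adjusted p = 0.169) and *Slc40a1* (0.54, adjusted p = 0.176) stayed called without it.

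Genes that use or move iron inside cells were read against the same shares of all genes. Of 8 genes of the IRE and iron regulatory protein system, 1 was called higher and 2 lower in saline mice and 1 lower under KD. *Ireb2*, which encodes an iron regulatory protein (-0.27, adjusted p = 0.190), and *Herc2* (-0.26, adjusted p = 0.159) were lower on the HFD in saline mice, where library totals alone gave 0.01 and 0.02. *Herc2* was also lower on the HFD under KD (-0.31, adjusted p = 0.147). Of 13 tested uptake genes, *Mcoln1* (0.32, adjusted p = 0.0636) and the macrophage hemoglobin receptor *Cd163* (0.71, adjusted p = 0.108) were higher in saline mice, and none was called under KD. Among 6 tested genes of storage and export, *Ncoa4*, which delivers ferritin to lysosomes, was lower on the HFD than on chow under KD (-0.21, adjusted p = 0.154). Of 12 heme genes, *Hmox2* was lower on the HFD in saline mice (-0.31, adjusted p = 0.0889). On the HFD under KD, *Fech* (-0.26, adjusted p = 0.0938) and *Urod* (-0.25, adjusted p = 0.154) were lower and *Cpox* (0.26, adjusted p = 0.225) higher.

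Of 14 tested genes of iron-sulfur cluster assembly, 3 were called higher and 1 lower on the HFD in saline mice, a share near the 25.9% of all genes. The scaffold gene *Iscu* rose from 50.1 ± 2.85 to 64.0 ± 3.23 CPM (0.35, adjusted p = 0.0124), *Glrx5* (0.38, adjusted p = 0.0852) and *Isca1* (0.18, adjusted p = 0.145) were higher, and *Lyrm4* was lower (-0.59, adjusted p = 0.118). *Isca1* was lower on the HFD under KD (-0.26, adjusted p = 0.0732). *Iscu* was 50.9 ± 3.48 CPM in HFD/FGFR4 KD and was the gene of these pathway lists that was called for the KD on the HFD (-0.33, SE 0.0797, adjusted p = 0.101 with limma-voom). In that comparison 3.14% of all genes were called. Both changes of *Iscu* rest on the same HFD mice, so their opposite signs are not independent. No pathway-list gene was called for the KD on chow or for the difference between the KD effects.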

How the data were processed

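Liver mRNA libraries (KAPA mRNA kit) of 16 mice were analysed, 4 per group, grouped by the diet and treatment in the labels. The authors deposited 1 table of estimated counts per gene, made with fastp and kallisto on GRCm38 per the submitters' processing notes; the versions and the transcript release are not given in the sources used here. Estimated counts cannot separate reads of near-identical genes. Of the cells in a library, 7.85% to 11.1% were not whole numbers, and totals ran from 3445949 to 5976449, so that a gene near 1 CPM rests on a few counts. No pair of libraries of a group matched within sampling noise. The labels number the mice 1 to 4 in each group, and nothing states that same-numbered mice were related, so p-values measure the spread between mice of this cohort, which was housed in shared cages. The cage of each mouse is not given in the sources used here, so effects of cage cannot be told apart from differences between groups.

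Genes under 1 CPM in more than 4 libraries were dropped, which left 11324 of 52143. TMM factors (edgeR 4.0.16) and a limma-voom fit of group means over all 16 libraries (limma 3.58.1, R 4.3.3) gave the main two-sided tests, because the methods of the study used limma-voom. Adjusted p are Benjamini-Hochberg values over the 11324 genes. The same fit was tested on simulated data. log2 CPM for correlations used a prior count of 2, and their p came from 100000 permutations of all 16 libraries without regard to group. As alternatives, DESeq2 1.42.0 on rounded estimated counts and the quasi-likelihood test of edgeR were run, with other scalings and filters, library quality weights, removal of abundant RNA, summed paralog rows, a replicate block, an adjusted p under 0.05 alone, only the groups compared, and fits without each library in turn. The fit on only the groups compared gives no separate value for the difference between the KD effects, which takes all 4 groups.

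The 10 members and all lists were chosen with earlier results of these data known. Named genes were the members, *Fgfr4*, per list up to 4 called genes with the smallest p, *Bmp6*, *Bmp2*, *Tmprss6* and hemojuvelin, and the 3 genes most correlated with *Hamp*, *Id1* and *Tfrc*, of which a few results are not reported here. Promoter windows were RefSeq's for GRCm38.p6, found for 6 of 10 members, and the *Hamp* and *Hamp2* stretches were aligned with Biopython 1.88. IRE letters were read from GENCODE M21 transcripts with Python 3.11.15. Of the markers fixed, 10 of 10 hepatocyte, 12 of 12 Kupffer cell, 10 of 10 stellate, 10 of 10 sinusoidal endothelial, 5 of 7 red blood cell, 2 of 5 cholangiocyte and 0 of 9 lymphocyte and neutrophil genes passed the filter. On the HFD in saline mice 3 sinusoidal endothelial and 0 cholangiocyte markers were called higher and none of either lower.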

Additional observations from a re-analysis of the deposited data

Results flagged for a closer look

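*Id1* stood apart in 1 library of each HFD-fed group. In HFD 1 it was 1.87 CPM, below the 2.83 to 2.94 CPM of the other HFD libraries, a gap of 0.892 of the range of the group. In HFD/FGFR4 KD 2 it was 3.98 CPM, above the 0.830 to 1.30 CPM of the rest, a gap of 0.851 of the range. Both exceeded Dixon's 95% critical value for 4 samples. These were 2 of 40 combinations of a member and a group, and chance flags about 1 in 20, so this many flags can come from chance. The values rest on 13 and 18 counts.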

How the results depend on the processing

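The count of the 10 members called was recomputed under each alternative. For the KD on the HFD it was 0, and 1 (*Ftl1*) with DESeq2 and with no filter, and 0 to 0 with each library left out in turn. For the HFD in saline mice it was 6, 5 in edgeR and DESeq2 (without *Id1*) and with library quality weights (without *Slc40a1*), 2 with an adjusted p under 0.05 alone (9.20% of all genes), and 4 to 7 with libraries left out. For the HFD under KD it was 2, 5 with library totals as the only scaling (20.1% of all genes), 4 with library quality weights (23.3%), 3 in edgeR (*Hamp2*, *Slc40a1* and *Tfrc*), DESeq2 (*Fth1*, *Hamp2* and *Slc40a1*) and with upper-quartile factors (*Fth1*, *Hamp* and *Slc40a1*), 0 with an adjusted p under 0.05 alone, and 2 to 5 with libraries left out. No member was called for the KD on chow or for the difference between the KD effects in any of these fits. The 8 called changes of members kept their sign in all alternatives, and 5 of them kept their call with every library left out. Of 42 uncalled changes, 13 changed sign somewhere. With library totals alone, 4 list genes on the HFD in saline mice turned from negative to positive, *Creb3l3* at 0.0542, *Herc2* at 0.0179, *Ireb2* at 0.0121 and *Ncoa4* at 0.222.

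Over all genes, the KD on the HFD gave 356 calls, 114 with library totals alone, 777 with quality weights, 89 to 622 with libraries left out (137 without HFD/FGFR4 KD 1) and 31 with an adjusted p under 0.05 alone. The HFD in saline mice gave 2938 calls, 5325 with no filter and 1042 with an adjusted p under 0.05 alone, and the HFD under KD 2293 calls, 351 under the latter and 1189 to 2535 with libraries left out. The difference between the KD effects gave 4 calls, 62 in DESeq2, 0 with library totals alone and 1 to 27 with libraries left out. Under library totals alone the share of calls that were higher was 82.8% for the HFD under KD, against 50.1%, with a median of all genes of 0.14.

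With the replicate number as a block, 4 members were called for the HFD in saline mice (26.04% of all genes), without *Slc40a1* (adjusted p = 0.210) and *Id1* (adjusted p = 0.204), and 2 for the HFD under KD (20.3%). It called 259 genes for the KD on the HFD. Deviations of same-numbered mice correlated between -0.29 and 0.24, over 0.1 in 7 of 24 pairs, so the numbers were not taken to pair the mice. Depth limits *Id1*, *Bmp6* and *Hamp2* on chow, each resting on few counts per library, and *Hamp* in HFD/FGFR4 KD 3.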
